A study of Mus musculus with 16 samples.

Results

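Histone acetylation depends on enzymes that add acetyl groups, enzymes that remove them, proteins that read the mark and enzymes that supply acetyl-CoA. The transcripts described here were 42 mouse genes of these kinds, chosen by name from a list of symbols and matched to the gene table through their Ensembl identifiers in GENCODE. All 42 were found among the 35328 genes of the table, and all 42 passed the filter on low counts that left 17830 genes for testing. The list holds 12 acetyltransferases, 11 zinc-dependent deacetylases, 7 sirtuins, 6 readers and scaffold subunits, 3 corepressor subunits and 3 enzymes of acetyl-CoA supply.

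RNA-Seq was performed on the dorsal hippocampus of male C57Bl6/J mice in 4 groups of 4 animals. Mice drank plain water or caffeine at 0.3 g/L for 2 weeks from an age of 8 to 9 weeks, and either stayed in the home cage or were trained in the Morris water maze, in which a mouse learns the place of a hidden platform. Trained mice had 3 days of training and their tissue was taken 1 hour after the last trial. Learning below names the comparison of trained with home cage mice. No group swam without learning, so learning cannot be told apart from swimming, handling and habituation to the maze. The labels name no genetic change in any group, and the stranded libraries were made from poly(A) RNA of bulk tissue. In bulk tissue, fewer cells of a type and less RNA per cell cannot be told apart.

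Acetyltransferases move the acetyl group of acetyl-CoA onto lysines of the histone tails, which loosens contact with DNA and makes a docking site for bromodomain proteins. Zinc-dependent deacetylases act mostly inside corepressor complexes, while sirtuins use NAD and so respond to the energy state of the cell. In the hippocampus, acetylation of histones is known to accompany memory formation, and the amount of an enzyme's transcript says nothing of its activity, its location or the acetylation of any gene.

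Total counts per library ranged from 23078094 to 49949281, and member counts ran from 253 to 11602 in a library. The summed level of 6 immediate early genes, transcripts that follow neuronal activity, was 181 to 288 CPM (counts scaled to the library size) in home cage mice and 344 to 537 CPM in trained mice. All 8 neuronal markers of the hippocampus were detected in every mouse. Choroid plexus markers, which come from tissue next to the hippocampus, were highest in home cage water mice, where they summed to 303, 1150, 916 and 2340 CPM, the last in mouse 20. They were at 192 to 501 CPM in home cage caffeine mice and 114 to 429 CPM in trained mice, and 8 of 8 were lower after learning averaged over treatments. In the same comparison 3 of 6 markers for microglia, 1 of 6 for astrocytes, 1 of 5 for endothelium and 1 of 8 for neurons were lower, and none of 7 for oligodendrocytes, 3 for their precursors or 4 for thalamus changed. The part of these markers in the learning results and in the caffeine comparison at rest was not tested. Mitochondrial genes took 3.23% to 3.59% of counts in trained mice and 3.46% to 4.49% in home cage mice, with the highest share in home cage caffeine mouse 17. That mouse was the lowest of 16 for 9 members and the highest for 9, which is 21.4% of members each way, against 19.0% and 16.9% of all tested genes. Learning water mouse 38 was the highest for 12 members (28.6%), against 11.2% of all tested genes. For results that rest on these mice, values without mice 17 and 20 are given below.

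Levels of the members spanned from 2.26 to 52.0 CPM per kilobase of exon, as means over 16 mice. The length is that of all annotated exons of a gene merged, so the order of genes depends on it. In CPM without length, Ncor1 at 230 was above Hdac11 at 200, and Hdac1 at 11.7 was below Sirt5 at 13.8. Hdac11, a deacetylase known to remove long fatty acyl groups, was the most abundant member at 52.0 ± 3.44 CPM per kilobase (SD, n = 16) and was above the next member in 16 of 16 mice. Acly, which makes acetyl-CoA from citrate, followed at 30.6 ± 1.74, and Sirt2, a mostly cytoplasmic sirtuin that is rich in myelin, at 26.4 ± 2.57. The reader Brd2 at 24.1 ± 1.05 and Brd9, a subunit of a chromatin remodeling complex, at 23.8 ± 1.72 were in that order in 9 of 16 mice and so did not differ beyond their spread.

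Among the acetyltransferases, Kat2a was the most abundant at 19.8 ± 0.860 CPM per kilobase, followed by the nuclear receptor coactivator Ncoa1 at 18.4 ± 1.68 and Kat7 at 17.3 ± 0.878. Kat2b, the close relative of Kat2a, was at 4.18 ± 0.647. The paired coactivators Crebbp and Ep300, which acetylate histones at enhancers, were at 5.55 ± 0.422 and 4.72 ± 0.592.

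Within class I, the nuclear deacetylases Hdac3 at 22.1 ± 1.23 and Hdac2 at 20.2 ± 0.913 CPM per kilobase stood far above Hdac1 at 3.41 ± 0.268 and Hdac8 at 3.18 ± 0.201. Class IIa enzymes shuttle between cytoplasm and nucleus, and Hdac5 at 19.7 ± 1.80 was the most abundant of them, with Hdac7 at 4.54, Hdac4 at 3.23 and Hdac9 at 3.21. Hdac4 was above Hdac9 in 8 of 16 mice, so these did not differ beyond their spread. Sirtuins after Sirt2 ran from the mitochondrial Sirt3 at 11.3 ± 0.803 through Sirt7, Sirt4, Sirt6 and Sirt1 to Sirt5, the lowest member, at 2.26 ± 0.177. The mitochondrial acetate-activating enzyme Acss1 was at 9.75 ± 1.01, and its nuclear and cytosolic relative Acss2 was at 6.73 ± 0.326. In CPM their order was the reverse, at 40.2 for Acss1 and 68.4 for Acss2, with merged exons of 4128 and 10163 bases. The scaffold of corepressor complexes Ncor1 was at 18 ± 1.84, above Sin3a at 6.92 and Rcor1 at 5.52.

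**Figure D1:**
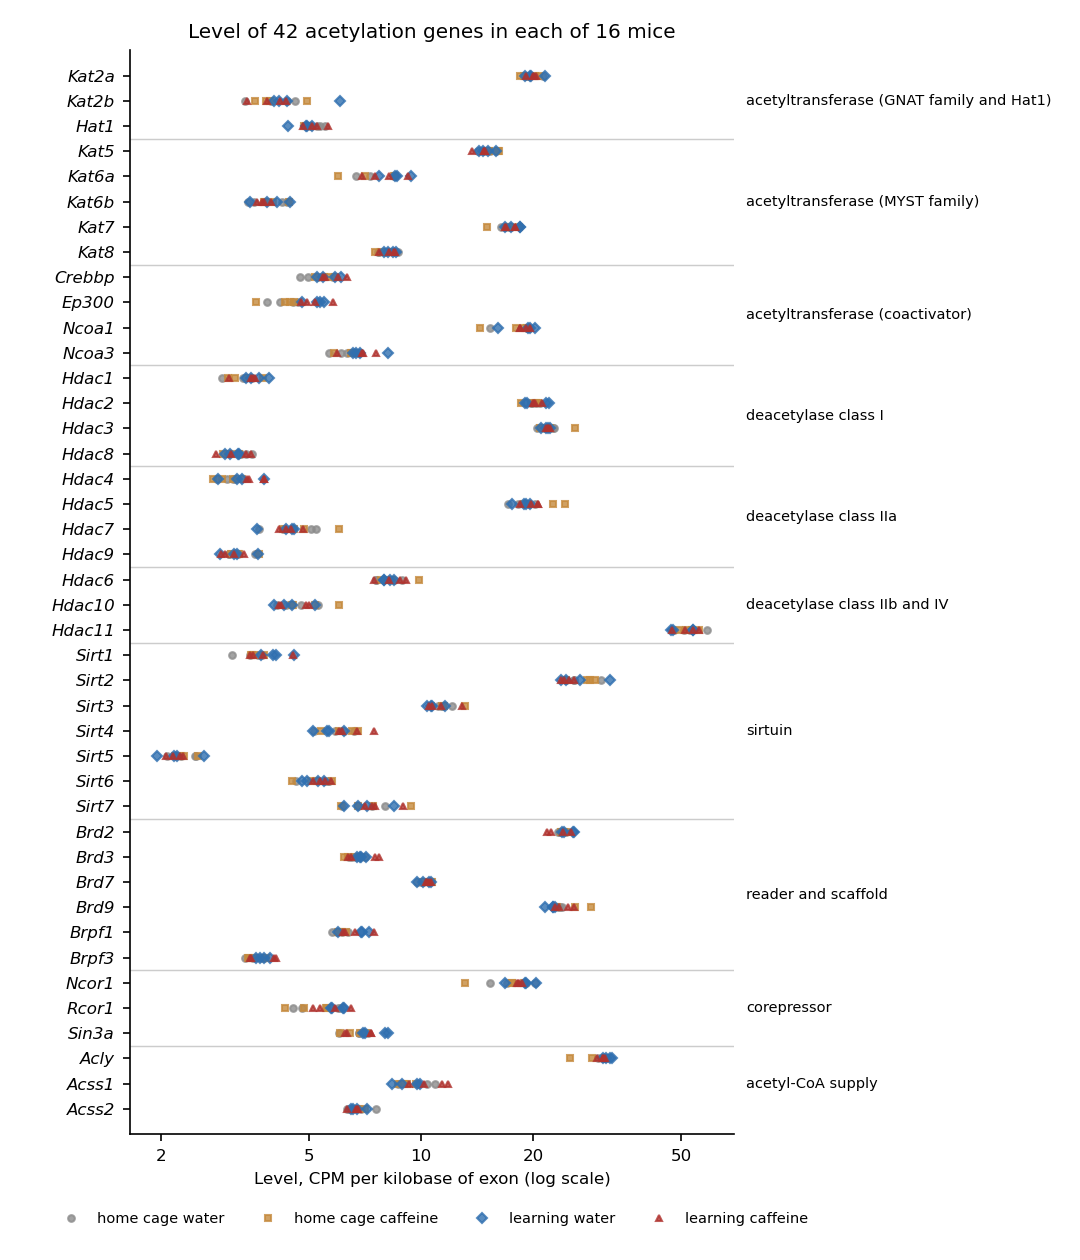
Level of each member in CPM per kilobase of exon on a log axis, with 1 symbol per mouse and the members grouped by role. Hdac11 stood above the other members in every mouse, Sirt5 was the lowest member on average, and the 4 groups overlapped widely.

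The members varied little between mice of a group. Their median coefficient of variation within groups was 7.91%, against 10.5% for all tested genes. The latter include genes of lower counts and were not matched for level. Brd7, a subunit of a chromatin remodeling complex, varied least at 2.90%, and Kat2b varied most at 15.6%.

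Sirt2 followed the level of oligodendrocyte markers across mice by r and by rho, while Kat2a and Kat2b passed by r only. The summed level of 7 oligodendrocyte markers ranged from 4170 to 10200 CPM, with the highest value in learning water mouse 24. Over 16 mice, Sirt2 correlated with this sum with Pearson's r = 0.90 (permutation p = 4e-05, adjusted over 84 relations p = 0.00112) and Spearman's rho = 0.72 (permutation p = 0.00228, adjusted p = 0.0461). Without the 2 mice farthest from the median sum, r was 0.84, and r was 0.88 within home cage mice and 0.94 within trained mice. For Kat2b, r was 0.78 (permutation p = 0.00264, adjusted p = 0.0277) and rho 0.39 (permutation p = 0.141, adjusted p = 0.298). For Kat2a, r was 0.56 (permutation p = 0.0235, adjusted p = 0.0989) and rho 0.41 (permutation p = 0.114, adjusted p = 0.288), with 0.67 without the 2 farthest mice, 0.38 within home cage mice and 0.82 within trained mice. The Kat2b relation rested on the 2 mice farthest from the median, without which r was 0.14. By rho alone, Hdac1 ran against the sum at -0.68 (permutation p = 0.00473, adjusted p = 0.0462), with r = -0.33, or -0.88 without the 2 farthest mice. Hdac10 ran with it at rho = 0.60 (permutation p = 0.0161, adjusted p = 0.0966), with r = 0.40, or 0.51 without those mice.

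The first question was whether chronic caffeine altered the transcripts of the acetylation machinery at rest. None of the 42 members passed the edgeR quasi-likelihood test at an adjusted p under 0.1 in home cage mice, as none of 17830 genes did (0%). Without home cage water mouse 6, 33 genes passed and no member did. At an unadjusted p under 0.05 there was 1 member, Hdac5, or 2.38% of the list, against 3.57% of all genes. The median log2 fold change was 0.001 for the members and -0.003 for all genes, and 21 of 42 members were above 0.

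These estimates were narrow. The 95% interval of the fold change lay within 1.25-fold in either direction for 38 of 42 members, against 52.8% of all genes, and within 1.5-fold for all 42. Here and below, such shares of all genes include genes of lower counts and were not matched for level. The 4 members with a wider interval were Hdac5, Hdac7, Hdac10 and Sirt7. Averaged over home cage and learning, which uses all 16 mice, the interval lay within 1.25-fold for 42 of 42 members, against 66.1% of all genes.

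Hdac5, a class IIa enzyme that leaves the nucleus on neuronal activity, had the smallest p. It was at 171, 150, 178 and 160 CPM in home cage water mice, 198, 170, 166 and 214 CPM in home cage caffeine mice, 169, 172, 166 and 154 CPM in learning water mice, and 162, 181, 181 and 173 CPM in learning caffeine mice. At rest 2 caffeine mice, numbers 2 and 17, were above every water mouse and the other 2 lay among them. The log2 fold change at rest was 0.18 (SE 0.08, adjusted p = 0.997), and 0.11 without mouse 17.

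Brd9 had the third smallest p at rest and the smallest in the average over both conditions. It was at 167, 158, 165 and 162 CPM in home cage water mice, 181, 161, 160 and 199 CPM in home cage caffeine mice, 150, 157, 159 and 157 CPM in learning water mice, and 173, 159, 179 and 163 CPM in learning caffeine mice. The same 2 home cage caffeine mice as for Hdac5 were the highest, and 3 of 4 trained caffeine mice were above every trained water mouse. The averaged log2 fold change was 0.11 (SE 0.04, adjusted p = 0.985), and it was 0.10 at rest, or 0.04 without mouse 17. In that average none of the 42 members and none of all genes passed (0%), and 2 members, Hdac5 and Brd9, were at an unadjusted p under 0.05, against 4.07% of all genes.

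Hdac8, a class I enzyme known to deacetylate cohesin, tended the other way. Its levels were 15.8, 15.7, 17 and 16.3 CPM in home cage water mice, 14.2, 14.6, 15.7 and 15 CPM in home cage caffeine mice, 14.4, 14.8, 15.5 and 15.6 CPM in learning water mice, and 16.8, 16.4, 15 and 13.5 CPM in learning caffeine mice. Home cage water mice were the highest group, and their lowest value met the highest of the home cage caffeine mice at 15.7 CPM. The log2 fold change of caffeine at rest was -0.12 (SE 0.07, adjusted p = 0.997).

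Hat1, which acetylates newly made histone H4, was the only member whose home cage groups did not overlap under caffeine, against 1.99% of all genes. It was at 15.1, 14.5, 15.4 and 15.9 CPM in home cage water mice, 14.4, 14.3, 13.9 and 14.1 CPM in home cage caffeine mice, 14.1, 12.6, 14.7 and 14.2 CPM in learning water mice, and 14.7, 15.2, 13.9 and 16.2 CPM in learning caffeine mice. All 4 home cage caffeine mice were just below the 4 home cage water mice, while the trained groups overlapped. The difference between its learning responses, caffeine minus water, was 0.21 on the log2 scale (SE 0.09, adjusted p = 1).

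**Figure D2:**
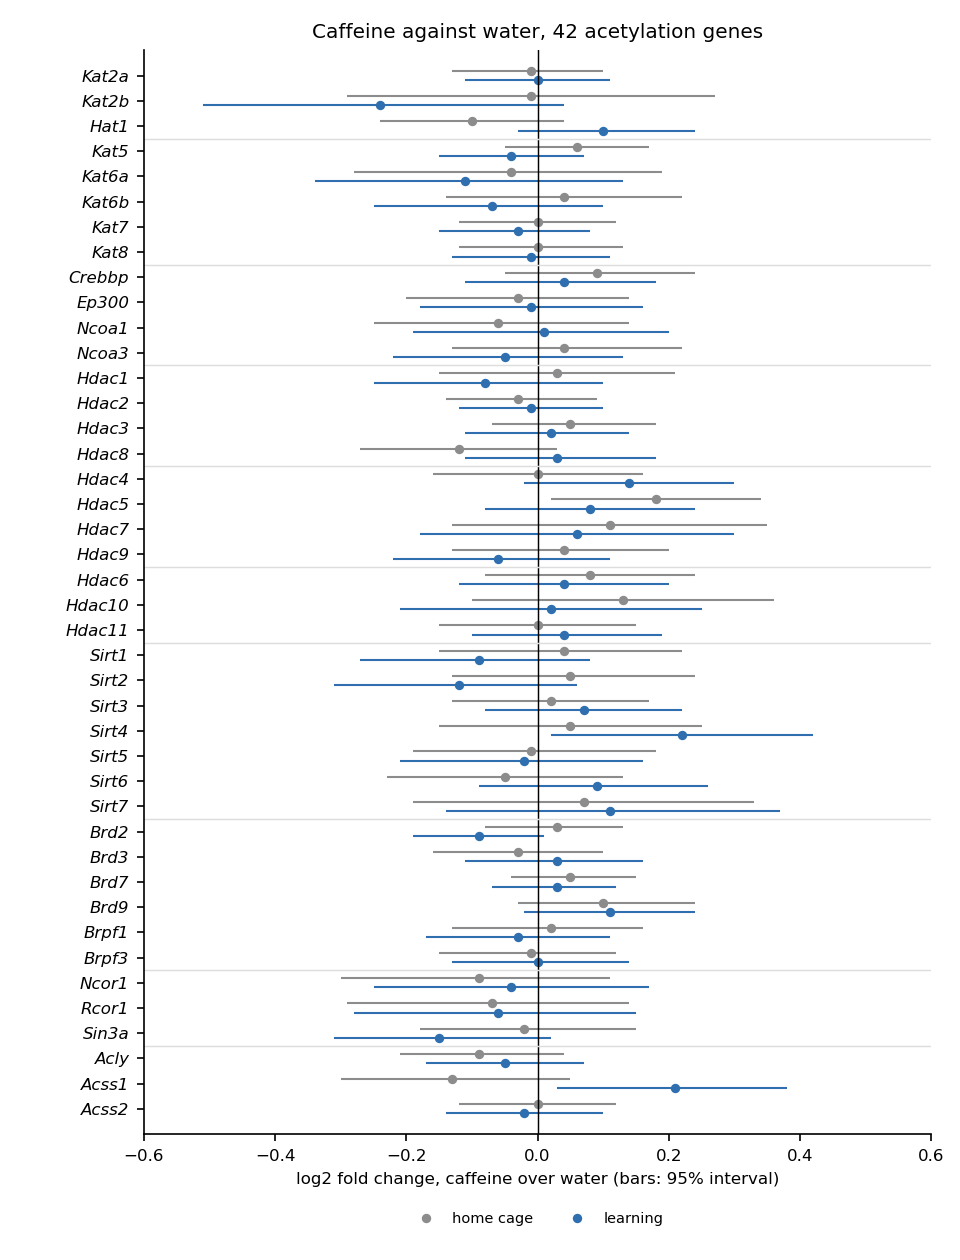
Log2 fold change of caffeine over water for each member, in home cage mice (grey) and in trained mice (blue), with 95% intervals as bars. No member passed the test in either condition, and most intervals cover 0.

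The second question was whether caffeine altered these genes in mice that had learned. None of the 42 members passed, nor did any of all genes (0%), and no member separated the groups, against 2.60% of all genes. Acss1 and Sirt4 were at an unadjusted p under 0.05, or 2 of 42 members against 3.93% of all genes. The interval lay within 1.25-fold for 37 of 42 members, against 53.6% of all genes, the others being Kat2b, Kat6a, Sirt4, Sirt7 and Acss1. The signs of the home cage and learning effects of caffeine, which share no mouse, matched for 23 of 42 members and for 53.9% of all genes.

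Sirt4 is a mitochondrial sirtuin. It was at 12.4, 14, 14.9 and 15.8 CPM in home cage water mice, 12.9, 14.4, 16.2 and 15.6 CPM in home cage caffeine mice, 14.9, 12.3, 13.4 and 13.5 CPM in learning water mice, and 17.9, 14.7, 16.1 and 14.5 CPM in learning caffeine mice. After learning 2 caffeine mice were above every water mouse and the other 2 were not. The log2 fold change there was 0.22 (SE 0.09, adjusted p = 0.999).

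Sin3a, the scaffold of a deacetylase complex with Hdac1 and Hdac2, was at 36.6, 36.5, 38.8 and 32.4 CPM in home cage water mice, 37.0, 38.2, 34.7 and 32.6 CPM in home cage caffeine mice, 38, 43.1, 37.6 and 43.9 CPM in learning water mice, and 33.6, 34.2, 39.6 and 39.5 CPM in learning caffeine mice. Of the trained caffeine mice 2 were below every trained water mouse and 2 were among them. The log2 fold change of caffeine after learning was -0.15 (SE 0.08, adjusted p = 0.999), and learning under water gave 0.17 (SE 0.08, adjusted p = 0.397).

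The third question was whether learning changed these genes. Averaged over treatments, 3 of 42 members rose, namely the acetyltransferase Ep300, the class IIa deacetylase Hdac4 and the scaffold Brpf1, and none fell. That is 7.14% of members, against 14.5% of all genes called in either direction and 7.81% called higher. The median log2 fold change was 0.023 for the members and -0.013 for all genes. Above 0 were 26 of 42 members, against 46.0% of all genes. For 41 of 42 members the interval lay within 1.25-fold, against 57.1% of all genes, and the exception was Ep300.

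In water-drinking mice alone, no member passed the test, against 0.970% of all genes and 0.639% called higher, and 5 of 42 members (Ep300, Ncoa3, Sirt1, Brpf1 and Sin3a) were at an unadjusted p under 0.05, a share close to the 11.8% of all genes. In caffeine-drinking mice, Ep300 and Hdac4 rose, or 4.76% of members, against 5.28% of all genes and 3.16% called higher. Groups did not overlap for Ep300 (higher) and Hdac8 (lower) under water, against 6.99% of all genes, and for Ep300 and Hdac4 (higher) and Kat5 (lower) under caffeine, against 10.9% of all genes. The signs of the learning effects under water and under caffeine, which share no mouse, matched for 30 of 42 members and for 70.4% of all genes.

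Ep300 (ENSMUSG00000055024, GRCm38 chr15:81585351-81652077, plus strand) had the largest averaged response of the members. It was at 54.9, 64.6, 66.8 and 59.6 CPM in home cage water mice, 61.3, 63.2, 65.1 and 51.4 CPM in home cage caffeine mice, 68.1, 74.8, 76.2 and 78.0 CPM in learning water mice, and 70.4, 67.7, 73.8 and 82.7 CPM in learning caffeine mice. All 8 trained mice were above all 8 home cage mice, which held for no other member and for 1.32% of all genes. The rise was 1.21-fold (95% interval 1.12 to 1.32, log2 0.28, SE 0.06, adjusted p = 0.00690).

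Taken by treatment, the log2 fold change of Ep300 was 0.29 under caffeine (SE 0.08, adjusted p = 0.0649) and 0.27 under water (SE 0.08, adjusted p = 0.168). These responses differed by 0.02 (95% interval -0.22 to 0.26, adjusted p = 1). The averaged rise kept its call without each of the 16 mice in turn (adjusted p 0.00456 to 0.0164), and without mice 17 and 20 together it was 0.24 (adjusted p = 0.0223). Under caffeine it was 0.22 (adjusted p = 0.165) without mouse 17.

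Ep300 also moved with the mitochondrial share of counts, which was lower in trained mice. Over 16 mice, r was -0.84 (permutation p = 1e-05, the smallest that 100000 permutations can give, adjusted p = 8.40e-04) and rho -0.88 (permutation p = 4e-05, adjusted p = 0.00336). The permutations ignored the groups, so these p also hold the difference between home cage and trained mice. Without the 2 mice farthest from the median share r was -0.77, and it was -0.91 within home cage mice and -0.48 within trained mice. The part of the mitochondrial share in the Ep300 result was not tested.

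Crebbp, the paralog of Ep300, did not pass. It was at 67.2, 78.7, 71.5 and 63.9 CPM in home cage water mice, 74.2, 70.2, 76.2 and 79.2 CPM in home cage caffeine mice, 73.6, 82.3, 79.5 and 71.1 CPM in learning water mice, and 73.8, 74.4, 80.9 and 85.6 CPM in learning caffeine mice. The 4 groups overlapped, with the highest value in a trained caffeine mouse and the lowest in a home cage water mouse. The averaged learning response was 0.10 on the log2 scale (95% interval -0.01 to 0.20, adjusted p = 0.227). The remaining coactivators had averaged responses of 0.07 for Ncoa1 and 0.14 for Ncoa3, so that 4 of 4 were above 0 and 1 passed.

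Hdac4 (ENSMUSG00000026313, GRCm38 chr1:91928779-92195699, minus strand), which represses MEF2 target genes and is known for roles in memory, was at 47.5, 49.3, 49.8 and 44.6 CPM in home cage water mice, 49.4, 52.2, 46.2 and 43.5 CPM in home cage caffeine mice, 59.6, 52.1, 50.5 and 45.1 CPM in learning water mice, and 60.0, 54.6, 59.7 and 54.0 CPM in learning caffeine mice. Under caffeine all 4 trained mice were above all 4 home cage mice, while under water the trained mouse 38 lay among the home cage mice. The averaged rise was 1.14-fold (95% interval 1.05 to 1.23, log2 0.19, SE 0.05, adjusted p = 0.0417).

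Learning under caffeine gave 0.26 for Hdac4 (SE 0.08, adjusted p = 0.0827) and learning under water 0.12 (SE 0.08, adjusted p = 0.568). The difference between them was 0.14 (95% interval -0.09 to 0.37, adjusted p = 1), so no difference between the responses was shown. The call under caffeine was lost in 6 of 16 fits without 1 mouse, with 0.22 (adjusted p = 0.199) without mouse 17, and 0.22 (adjusted p = 0.198) without mice 17 and 20. Without mice 17 and 20 the averaged value was 0.15 (adjusted p = 0.135), and with a correction for transcript length and GC content it was 0.13 (adjusted p = 0.140). Hdac4 shares 3536 of its 15813 exonic bases with Gm26720, a non-coding gene on the opposite strand, and the strand setting of the counting is not given in the sources used here.

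The other class IIa enzymes did not pass, with averaged responses down to -0.13 for Hdac7, and of the 4 only Hdac4 was above 0. Among class IIb and IV enzymes, none of 3 was above 0, with a median of -0.036.

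Brpf1 (ENSMUSG00000001632, GRCm38 chr6:113307137-113324860, plus strand) holds the MYST acetyltransferases Kat6a, Kat6b and Kat7 in their complexes. It was at 40.3, 43.2, 41.6 and 39.1 CPM in home cage water mice, 40.5, 41.6, 41.3 and 42.5 CPM in home cage caffeine mice, 40.5, 46.9, 47.1 and 49.0 CPM in learning water mice, and 42.4, 41.7, 45.0 and 50.7 CPM in learning caffeine mice. Under water 3 of 4 trained mice were above every home cage mouse, and under caffeine 2 of 4 were. The averaged rise was 1.10-fold (95% interval 1.03 to 1.18, log2 0.14, SE 0.05, adjusted p = 0.0825). The call was lost in 9 of 16 fits without 1 mouse, with adjusted p up to 0.148 without learning caffeine mouse 40, and was 0.166 without mice 17 and 20 and 0.160 with the length and GC correction.

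Its partners Kat6a, Kat6b and Kat7 did not pass. Averaged over treatments, 5 of 6 readers and scaffolds were above 0 and 1 passed, and 3 of 5 MYST acetyltransferases were above 0 and none passed. The corepressor subunits Ncor1, Rcor1 and Sin3a had averaged responses between 0.10 and 0.17, and none passed.

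The stretches of 250 bases before the RefSeq starts of Hdac4 and Brpf1 (GRCm38.p6) are shown because both genes rose with learning and their windows overlap no annotated exon. For Hdac4 this is chr1:92180342-92180591 on the minus strand, at a start inside the annotated gene, and for Brpf1 chr6:113306887-113307136 on the plus strand, printed 5′ to 3′. Capitals mark TGACG or its reverse complement CGTCA, the core of the cAMP response element.
Hdac4: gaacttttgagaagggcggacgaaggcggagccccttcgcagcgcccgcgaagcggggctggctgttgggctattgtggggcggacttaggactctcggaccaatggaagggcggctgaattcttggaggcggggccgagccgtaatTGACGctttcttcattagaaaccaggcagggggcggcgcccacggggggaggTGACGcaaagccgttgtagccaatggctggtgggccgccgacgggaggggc
Brpf1: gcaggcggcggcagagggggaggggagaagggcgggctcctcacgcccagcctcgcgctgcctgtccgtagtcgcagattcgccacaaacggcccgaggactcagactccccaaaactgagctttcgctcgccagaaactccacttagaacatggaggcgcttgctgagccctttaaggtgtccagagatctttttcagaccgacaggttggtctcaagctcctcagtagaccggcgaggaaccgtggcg

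The full element TGACGTCA stood in 1.55% of the 32851 mouse promoter windows and in 0 of 52 windows of the 37 members that the table covers. The core TGACG stood in 15 of 52 member windows (28.8%), against 17.8% of all windows. It occurs 2 times before Hdac4 and 0 times before Brpf1 and Ep300. The GC box GGGCGG stood in 35 of 52 member windows (67.3%), against 32.7% of all windows, with 4 before Hdac4. The AP-1 letters TGANTCA, the EGR letters GCGNGGGCG and the E-box CACGTG each stood in 3 of 52 member windows (5.77%), against 6.75%, 4.70% and 6.02% of all windows. Both strands were searched, the core lies inside the full element, and a match is no evidence of binding. Of the 37 members, 12 have more than 1 window, and each window was counted. The member windows and all windows were not matched for GC content.

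**Figure D3:**
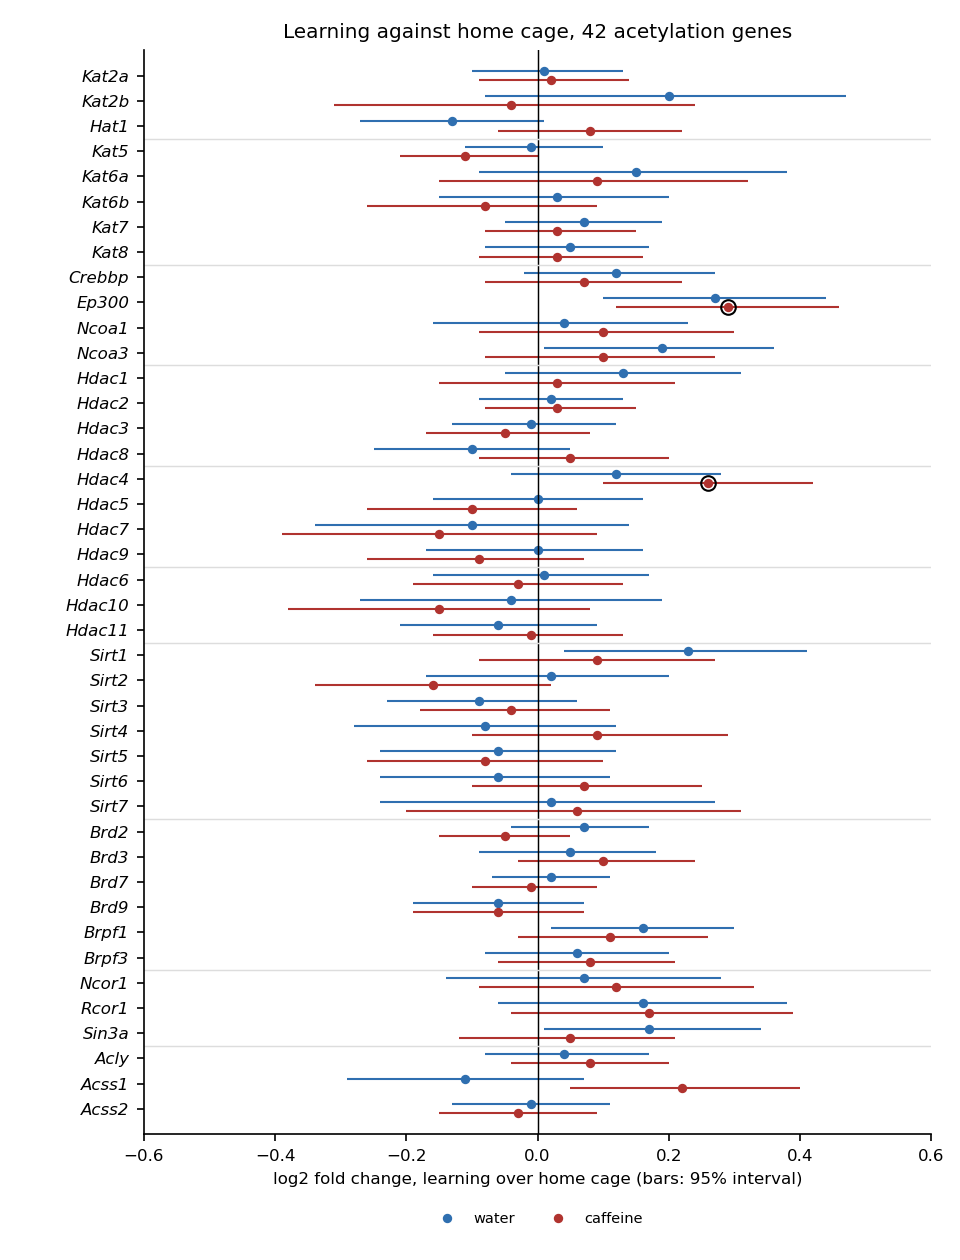
Log2 fold change of learning over home cage for each member under water (blue) and under caffeine (red), with 95% intervals as bars and black rings for values that passed the test. Ep300 was at 0.27 and 0.29, Hdac4 at 0.12 and 0.26, and the rings mark Ep300 and Hdac4 under caffeine.

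Sirt1, the best known nuclear sirtuin, was at 16.6, 19.4, 19.9 and 18.5 CPM in home cage water mice, 18.7, 19.0, 18.6 and 20.1 CPM in home cage caffeine mice, 19.8, 21.3, 21.6 and 24.3 CPM in learning water mice, and 18.8, 18.5, 20.1 and 24.1 CPM in learning caffeine mice. Under water 3 of 4 trained mice were above every home cage mouse, and under caffeine the groups overlapped. The log2 fold change under water was 0.23 (SE 0.09, adjusted p = 0.301), and 0.17 (adjusted p = 0.540) without mouse 38, and the average was 0.16 (SE 0.06, adjusted p = 0.110). None of the 7 sirtuins passed in any comparison by edgeR, while DESeq2 called Sirt1, and also Ncoa3, in the average.

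None of the 4 class I enzymes passed in any comparison, and the averaged learning responses of Hdac1 and Hdac8 were 0.08 (95% interval -0.05 to 0.21) and -0.02 (95% interval -0.13 to 0.08). Hdac2, known to restrain memory genes, was at 88.9, 93.5, 88.6 and 91.3 CPM in home cage water mice, 92.2, 88.7, 91.2 and 83.4 CPM in home cage caffeine mice, 86.3, 84.9, 97 and 98.8 CPM in learning water mice, and 89.8, 89.3, 90.4 and 94.5 CPM in learning caffeine mice. Its groups overlapped, and the averaged learning response was 0.03 (95% interval -0.05 to 0.11) and the averaged caffeine effect -0.02 (95% interval -0.10 to 0.06).

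Hdac3, the catalytic subunit that works with Ncor1, was at 92.5, 83.3, 86.8 and 92.1 CPM in home cage water mice, 87.9, 84.7, 89.8 and 106 CPM in home cage caffeine mice, 89.3, 85.0, 90.1 and 87.9 CPM in learning water mice, and 90.1, 89.2, 88.1 and 88.9 CPM in learning caffeine mice. Only home cage caffeine mouse 17, at 106 CPM, stood apart. The averaged learning response was -0.03 (95% interval -0.12 to 0.06) and the averaged caffeine effect 0.04 (95% interval -0.05 to 0.12).

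The last question was whether caffeine altered the response to learning. None of the 42 members and none of all genes passed in the difference between the learning responses (0%), and Acss1 and Hat1 were at an unadjusted p under 0.05, against 3.63% of all genes. This comparison had the widest intervals, which lay within 1.25-fold for 22 of 42 members and within 1.5-fold for 41, with Kat2b outside.

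Acss1 (ENSMUSG00000027452, GRCm38 chr2:150618105-150668500, minus strand), which turns acetate into acetyl-CoA in mitochondria, had the smallest p. It was at 40.6, 35.7, 45.2 and 43.0 CPM in home cage water mice, 37.0, 35.7, 37.9 and 40 CPM in home cage caffeine mice, 34.5, 41.1, 40.3 and 36.6 CPM in learning water mice, and 48.6, 47.2, 42 and 38.3 CPM in learning caffeine mice. Of the trained caffeine mice 3 were above every home cage caffeine mouse and every trained water mouse, and mouse 40 was not. The log2 fold change of learning was 0.22 under caffeine (SE 0.08, adjusted p = 0.159) and -0.11 under water (SE 0.08, adjusted p = 0.638).

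The difference between these responses of Acss1 was 0.33 (95% interval 0.08 to 0.58, adjusted p = 1), so it did not pass over all genes. The caffeine effect was 0.21 after learning (SE 0.08, adjusted p = 0.999) and -0.13 at rest (SE 0.08, adjusted p = 0.997). Learning under caffeine passed for Acss1 without mouse 40 (0.29, adjusted p = 0.0949) and by DESeq2 (0.23, adjusted p = 0.0947). Acss1 shares 113 exonic bases with E130215H24Rik, a transcript of the opposite strand at 0.697 CPM.

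Acly was at 158, 163, 167 and 164 CPM in home cage water mice, 152, 165, 165 and 132 CPM in home cage caffeine mice, 171, 167, 163 and 172 CPM in learning water mice, and 157, 162, 165 and 163 CPM in learning caffeine mice. Home cage caffeine mouse 17 was the lowest at 132 CPM and the other values lay between 152 and 172. The averaged learning response was 0.06 (95% interval -0.03 to 0.15).

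Acss2, which feeds acetyl-CoA to histone acetylation in the nucleus of neurons, was at 64.1, 64.8, 70.0 and 77.0 CPM in home cage water mice, 71.6, 67.8, 68 and 68.3 CPM in home cage caffeine mice, 72.8, 66.5, 68.5 and 65.9 CPM in learning water mice, and 68.4, 67.9, 68.6 and 64.5 CPM in learning caffeine mice. The groups overlapped throughout. The averaged learning response was -0.02 (95% interval -0.11 to 0.06) and the averaged caffeine effect -0.01 (95% interval -0.10 to 0.07).

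Brd2, a bromodomain reader, was the third by p in the difference between responses. It was at 192, 184, 185 and 183 CPM in home cage water mice, 193, 188, 187 and 191 CPM in home cage caffeine mice, 190, 201, 187 and 201 CPM in learning water mice, and 171, 175, 189 and 198 CPM in learning caffeine mice. Trained caffeine mice 22 and 27 were the lowest of all 16, and the other 2 lay among the trained water mice. The difference was -0.12 (SE 0.07, adjusted p = 1).

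**Figure D4:**
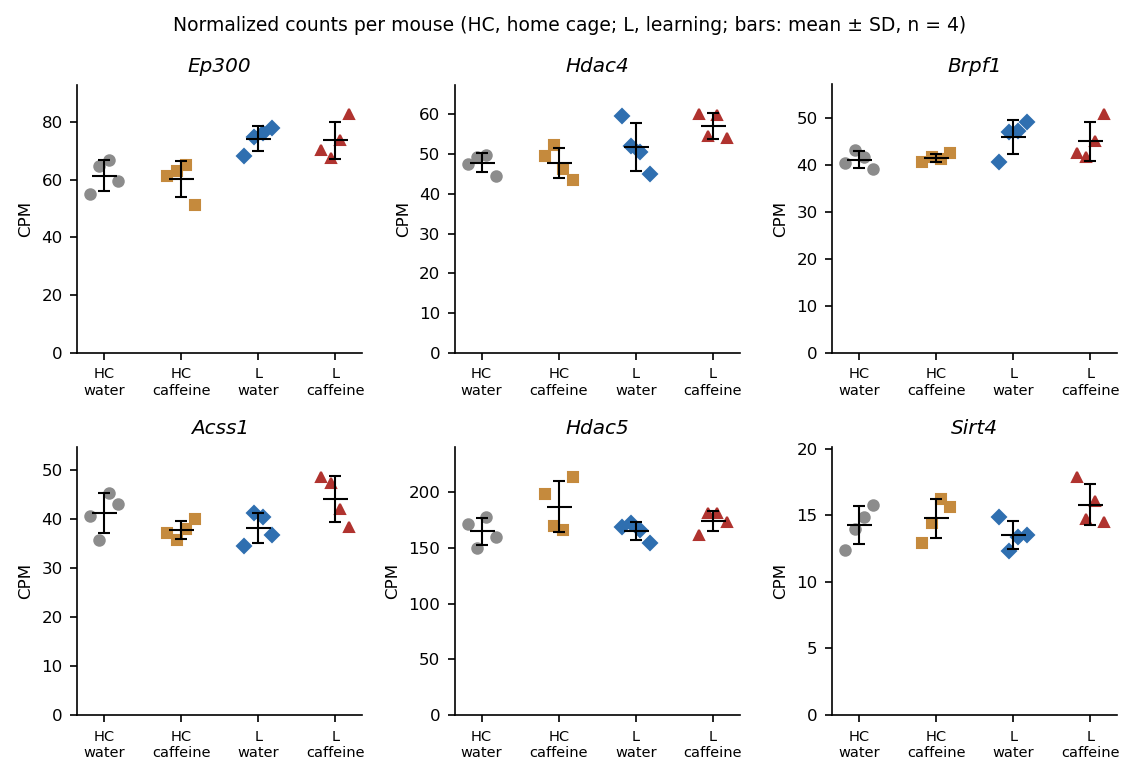
CPM of 6 members in each mouse, with 1 symbol per mouse and bars for the mean ± SD of 4 mice. For Ep300 all trained mice were above all home cage mice, for Hdac4 this held under caffeine, and the other genes overlapped.

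The mitochondrial share moved with other members too. At a p of r adjusted over 84 relations under 0.1, it correlated negatively with 11 members, among them Ep300, Kat6a, Rcor1, Ncor1, Hdac4 and Acly, and positively with 6, namely Hdac3, Hdac5, Hdac10, Hdac11, Sirt3 and Brd9. For Hdac4, r was -0.57 (permutation p = 0.0149, adjusted p = 0.0799) and rho -0.53 (permutation p = 0.0351, adjusted p = 0.148), with -0.44 without the 2 mice farthest from the median, -0.71 within home cage mice and 0.15 within trained mice. For Hdac3, r was 0.80 (permutation p = 0.00543, adjusted p = 0.0375) and rho 0.36 (permutation p = 0.175, adjusted p = 0.323), with 0.18 without those 2 mice. Without the same 2 mice r was 0.23 for Hdac5, 0.13 for Brd9, 0.36 for Hdac11, 0.48 for Sirt3 and 0.54 for Hdac10. It was -0.69 for Kat6a, -0.71 for Rcor1, -0.53 for Ncor1 and -0.44 for Acly. Of the 6 positive members, only Sirt3 had an adjusted permutation p of rho under 0.1 (0.0462). Of the negative ones named, Ep300, Kat6a, Rcor1 and Ncor1 did, and Hdac4 and Acly did not. By rho alone, Brpf1 ran against the share at -0.68 (permutation p = 0.00495, adjusted p = 0.0462). Its r was -0.47, or -0.68 without those 2 mice. Ncoa3 and Sirt1 did so at rho = -0.64 each (permutation p = 0.00934 and 0.00982, adjusted p = 0.0750 for both). Their r was -0.37 and -0.39, or -0.37 and -0.56 without those mice. The correlation was not computed for genes outside the list, so the counts have no share of all genes beside them. The part of the mitochondrial share in the values of the members was not tested.

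The merged exons of the members were long, with a median exonic length of 5610 bases against 3980 for all tested genes. Across genes, which are not independent replicates, exonic length correlated with the averaged learning response with r = 0.32 and rho = 0.26 over the members, and r = 0.23 and rho = 0.33 over 17802 genes. With the length and GC correction the averaged Ep300 response was 0.21 (adjusted p = 0.00414).

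**Figure D5:**
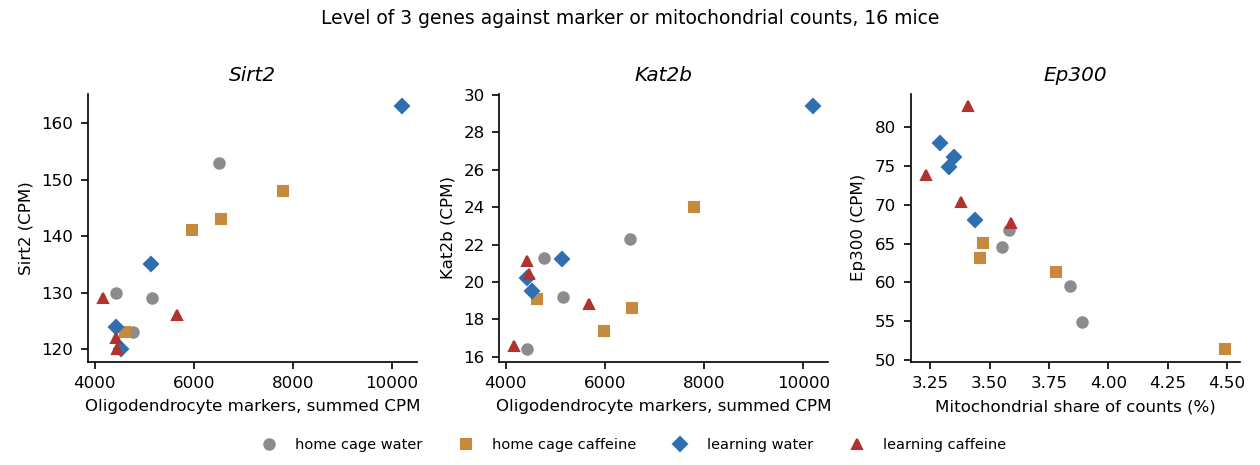
CPM of Sirt2 and Kat2b against the summed CPM of 7 oligodendrocyte markers, and of Ep300 against the mitochondrial share of counts, with 1 symbol per mouse. Sirt2 rose along the marker sum (r = 0.90), Kat2b was highest in learning water mouse 24, and Ep300 was lowest in the mouse with the highest mitochondrial share.

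The acetylation machinery was also read from 143 other genes, namely 46 of acetyltransferase complexes, 38 of deacetylase complexes, 29 acetyl-lysine readers and 30 of acetyl-CoA and NAD supply, all of which were tested. Under learning averaged over treatments, 24 were higher and 4 lower (19.6%, against 14.5% of all genes). The share called higher was 7.81% over all genes. Readers gave 8 of 29 higher and none lower, acetyltransferase complexes 8 higher and 1 lower, deacetylase complexes 6 higher and 1 lower, and supply genes 2 higher and 2 lower. The genes of smallest p were the remodeling subunit Dpf2 at 0.21 on the log2 scale (SE 0.04, adjusted p = 0.00204), the NAD consumer Parp1 at 0.23 (adjusted p = 0.00367) and the methyltransferase Kmt2a at 0.29 (adjusted p = 0.00611). Kansl3 at 0.17 and Arid4a at 0.31 followed. Mlycd, which breaks down malonyl-CoA, was lower at -0.21 (adjusted p = 0.0279), as were Rcor2, Nmnat3 and Dmap1.

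Under caffeine, learning gave 7 of these 143 genes higher and 1 lower (5.59%, against 5.28% of all genes). Dpf2 led at 0.27 (SE 0.05, adjusted p = 0.00925), followed by Kansl3 at 0.23, Kmt2a at 0.32, Parp1 at 0.24, Arid4a at 0.35 and Baz1b at 0.24. Under water none passed, and Parp1 and Acaca had the smallest p, both at 0.22 (adjusted p = 0.129 and 0.143). In the caffeine comparisons and in the difference between responses none of the 143 passed. Acss3, a relative of Acss1, had the smallest p at rest, at -0.50 (SE 0.19, adjusted p = 0.997), and the NAD-consuming enzyme Cd38 in the difference between responses, at 0.57 (SE 0.20, adjusted p = 1).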

How the data were processed

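The authors deposited raw read counts per gene for 16 libraries, made by alignment with STAR and counting with HTSeq (0.6.1p1), the tools named in the submitters' processing notes. Total counts ranged from 23078094 to 49949281 per library (median 36437284.5), and 0 per-sample columns were left unused. Symbols, coordinates and exon lengths came from GENCODE M21 (GRCm38), and promoter windows from RefSeq (GRCm38.p6).

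Counts were tested in R 4.3.3 with edgeR 4.0.16 (TMM, filterByExpr, quasi-likelihood test, 1 mean per group over 16 libraries), with Benjamini-Hochberg adjustment over 17830 genes and calls at an adjusted p under 0.1. CPM are TMM-normalized. DESeq2 1.42.0 with its Wald test, other filters and size factors, a robust fit, the 8 libraries of a comparison and each mouse left out were tried as alternatives. A correction for length and GC content, and a fit without home cage caffeine mouse 17 and home cage water mouse 20, were chosen after seeing the data. The pipeline was tested on simulated data for learning under caffeine only, with planted changes larger than those the members showed. Correlations used 100000 two-sided permutations over all 16 mice, which ignored the groups.

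The members and lists were chosen with earlier results of these data known. Values in every mouse are given for members that passed in a comparison, for the 3 members of smallest p in each, and for Crebbp, Ep300, Hdac2, Hdac3, Acly, Acss1 and Acss2. Of the other acetylation genes, at most the 6 of smallest p are named per comparison, and further ones named were chosen after their values were seen. The values of 1 such gene are not reported here. Libraries of a group differed beyond sampling noise (24 pairs, chi-square per degree of freedom 5.47 to 32.1). Mouse numbers are shared by no groups, so no pairing was used. Of the 42 members, 22 share exonic bases with another gene, 17 of them with a gene on the opposite strand, and the strand setting of the counting is not given in the sources used here.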

Additional observations from a re-analysis of the deposited data

Results flagged for a closer look

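In 7 of 168 sets of 4 mice (42 members in 4 groups), 1 mouse stood apart from the other 3 by more than Dixon's criterion allows, and chance alone flags about 1 in 20. Kat2a was at 74.0 CPM in home cage water mouse 6, against 66.7 to 67.5 in the others. Kat2b was at 29.4 CPM in learning water mouse 24, against 19.5 to 21.2, and this mouse also had the highest oligodendrocyte marker sum. Kat5 was at 48.2 CPM in learning caffeine mouse 40, against 51.8 to 52.3. Ncoa1 was at 131 CPM in home cage water mouse 20, against 165 to 168. Hdac1 was at 10.5 CPM in learning caffeine mouse 22, against 12.0 to 12.3. Sirt6 was at 12.8 CPM in home cage water mouse 8, against 15.3 to 15.7. Acss2 was at 71.6 CPM in home cage caffeine mouse 2, against 67.8 to 68.3. None of the 7 genes passed in any comparison with all 16 mice. Whether a flagged mouse kept its gene from passing was not tested.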

How the results depend on the processing

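The averaged learning response of Ep300 passed under each of 7 alternatives and without each of the 16 mice. Of the values recomputed, those of members that passed or were among the 3 of smallest p in a comparison and those of Acss1, none changed direction. In learning averaged over treatments, DESeq2 called 5 members (Ep300, Hdac4, Brpf1, Ncoa3 and Sirt1), the length and GC correction 1 and the fit on 14 libraries 1, Ep300 in both, and leaving out 1 mouse gave 2 to 7, with 7 without home cage water mouse 8 and 5 without learning caffeine mouse 27. In learning under caffeine, an adjusted p under 0.05 left 0 members, the 8 libraries alone 1 (Hdac4), the length and GC correction 1 (Ep300) and 14 libraries 0, and leaving out 1 mouse gave 0 to 2, with 0 without home cage caffeine mouse 17 or learning caffeine mouse 30. In learning under water, DESeq2 and a filter of at least 1 count each called 1 member, Ep300, and leaving out 1 mouse gave 0 to 1, with 1 without home cage caffeine mouse 17. The caffeine comparisons and the difference between responses gave 0 members under every alternative run. Over all genes, DESeq2 called 19 for caffeine at rest, 6 for caffeine after learning, 16 for caffeine averaged, 6 for the difference, 427 for learning under water and 1561 under caffeine, the filter of at least 1 count 34, 8, 36, 9 and 290 in the first 5 of these, and 14 libraries 64 for learning under water, 408 under caffeine and 1368 averaged, and the 8 libraries alone 85 under water and 617 under caffeine. Leaving out 1 mouse gave 37 to 312 genes under water and 382 to 1231 under caffeine, and up to 33 for caffeine at rest and 24 for caffeine averaged, both without home cage water mouse 6. The cause of these shifts was not tested. With 4 mice per group, members had a median SE of 0.077 on the log2 scale in caffeine against water at rest.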
